A study of Mus musculus with 6 samples.

Results

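The mTOR complexes with their regulators TSC, Rheb and Ragulator were followed from input RNA into the RNA that came down with Staufen2 in a podocyte line. The set was a list of 10 named genes: Mtor, Rptor, Rictor, Mlst8, Tsc1, Tsc2, Lamtor1, Lamtor2, Rheb and Rps6kb1. Each was read from its probe set with 1 gene symbol, or the brightest of them over the 6 arrays, and 9 of the 10 had such a probe set among 19938 genes. Rps6kb1, the S6 kinase gene, had none in the annotation used here and was not analysed here. The cells were differentiated immortalized murine podocytes, a conditionally immortal line grown at 33°C with gamma-interferon and differentiated at 37°C without it. The labels give no genotype or drug that would separate the groups. The first group was 3 arrays of input RNA, and the second, called stau2 in the labels, was 3 arrays of RNA co-precipitated with an antibody against Staufen2 from cytoplasmic lysate. Staufen2 binds double-stranded stretches of RNA and is best known for carrying mRNAs along neuronal processes. Both kinds of RNA entered labelling at 100 ng, so values describe composition rather than yield. A pulldown with a control antibody was not analysed here, and a higher value is recovery relative to input rather than binding as such.

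The kinase mTOR works in a pair of complexes that share the subunit Mlst8. Raptor (Rptor) defines mTORC1, which drives protein synthesis and restrains autophagy when amino acids and growth factors are present, and Rictor defines mTORC2, which phosphorylates AKT. Growth factor signals reach mTORC1 through the TSC complex, which keeps the small GTPase Rheb inactive, and amino acid signals reach it through Ragulator and the Rag GTPases on the lysosome. In podocytes, mTOR signalling is known for its part in cell size and in the injury of diabetic kidney disease.

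The starts of 4 of the genes are shown here because they hold the motifs searched and include both directions of difference. The windows come from RefSeq promoters of GRCm38.p6 and cover 100 bases before and 20 bases after the annotated start, 5′ to 3′ on the gene's strand. Capitals mark the letters CACGTG, the core recognised by TFEB and its relatives, and CCGGAAG or its reverse complement CTTCCGG, an ETS-type motif. Both motifs were chosen after the data were seen.
Tsc2 (chr17:24632608-24632727, - strand): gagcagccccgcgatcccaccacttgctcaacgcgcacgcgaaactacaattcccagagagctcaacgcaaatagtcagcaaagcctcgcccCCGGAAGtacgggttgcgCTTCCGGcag
Lamtor1 (chr7:101905737-101905856, + strand): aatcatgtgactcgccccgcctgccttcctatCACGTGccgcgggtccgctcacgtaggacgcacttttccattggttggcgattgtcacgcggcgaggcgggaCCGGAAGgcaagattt
Lamtor2 (chr3:88552932-88553051, - strand): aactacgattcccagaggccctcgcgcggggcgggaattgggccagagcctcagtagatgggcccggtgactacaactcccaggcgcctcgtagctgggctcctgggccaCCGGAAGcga
Rheb (chr5:24842342-24842461, - strand): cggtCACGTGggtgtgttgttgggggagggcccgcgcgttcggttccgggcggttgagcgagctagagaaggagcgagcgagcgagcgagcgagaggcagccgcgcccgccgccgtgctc

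All 9 measured genes had an entry in the promoter table, and the whole window of 300 bases was searched on both strands. CACGTG was found in 2 of 9, Lamtor1 and Rheb, against 7.2% of 27025 promoters and 12.7% of 63 promoters of other pathway genes. CCGGAAG was found in 4 of 9, against 9.1% of all promoters and 17.5% of the 63 of other pathway genes. Those 4 were Mtor, Tsc2 and Lamtor1, which had higher values in the pulldown, and Lamtor2, which had lower ones, so genes with this motif lay in both directions.

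The 6 arrays had medians of 6.53 to 6.54 (log2), and their small number limits precision. Arrays of one group correlated at 0.998 to 0.999 over the probe sets, and arrays of different groups at 0.982 to 0.983. Of 12 podocyte markers 10 were measured and 7 of them exceeded 6.54, the median over the probe sets, in both groups, including Wt1, Synpo, Cd2ap and Actn4. Nphs1 (nephrin), Ptpro and Podxl lay below it in the input, at 6.30, 6.10 and 6.04. Podxl was among the markers called higher (0.32, limma adjusted p = 0.00044), but its pulldown mean of 6.35 was also below the median. Of markers of other cells, 0 of 5 endothelial, 1 of 3 measured mesangial (Pdgfrb), 2 of 5 tubular (Lrp2 and Aqp2) and 2 of 5 immune markers (Cd68 and Cd14) exceeded it in the input. The log2 values of the 10 measured podocyte markers summed to between 91.1 and 91.5 in the input arrays and between 93.4 and 93.7 in the pulldown arrays, with 6 of them higher and 0 lower in limma's test, which 31.3% of all genes passed as higher and 17.3% as lower. The same sums were 23.1 to 23.2 in input arrays and 23.4 to 23.8 in pulldown arrays for the 3 mesangial markers (1 higher, 0 lower). For the 5 tubular markers they were 33.6 in each input array and 34.0 to 34.1 in the pulldown arrays (2 higher, 0 lower). For the 5 endothelial markers they were 27.8 to 28.1 and 28.3 to 28.4 (2 higher, 1 lower), and for the 5 immune markers 32.6 to 32.8 and 31.9 to 32.1 (0 higher, 2 lower). The part of these markers in the results below was not tested. Whether replicates were separate cultures is not stated in the labels, and p-values therefore reflect only sample-to-sample spread, possibly technical.

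The mRNAs of Mtor, Rptor, Rictor, Tsc1 and Tsc2 were higher in the pulldown by 1.68-fold to 2.43-fold. Those of Lamtor2 and Rheb were lower by 2.05-fold and 1.42-fold. Of the 9 measured genes, 7 were higher and 2 lower at a Benjamini-Hochberg adjusted p under 0.05 in limma, with Lamtor1 only just past that threshold. Over all genes 48.7% passed, 31.3% higher and 17.3% lower, and after cyclic loess scaling the shares were 25.7% higher and 22.9% lower. All 9 members lay above the median level of 6.54, and among the 12001 genes above it 72.8% passed, 46% higher and 26.8% lower. The log2 difference had a median of 0.74 over the 9 members, 0.04 over all genes and 0.09 over the genes above the median level. The arrays of both groups did not overlap in 8 of 9 members, 6 higher and 2 lower, against 55.9% of all genes, 36.4% higher and 19.6% lower.

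**Figure D1:**
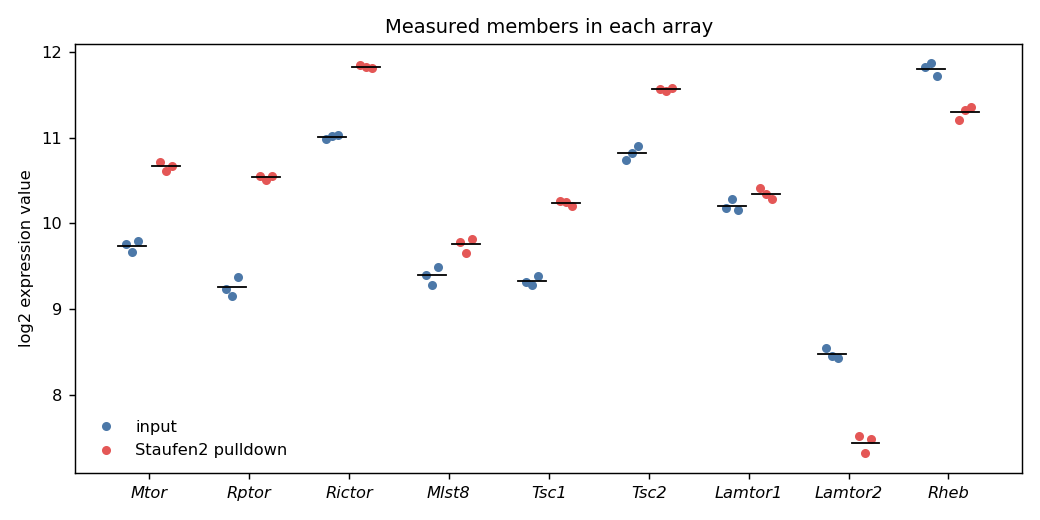
Log2 expression value (vertical axis) of each measured gene in each array, with 3 input arrays in blue, 3 Staufen2 pulldown arrays in red and black lines at group means. Mtor, Rptor, Rictor, Tsc1 and Tsc2 stand apart upwards, Mlst8 also by a smaller gap, Lamtor2 and Rheb downwards, and the Lamtor1 arrays overlap. Heights of different genes are different probe sets and cannot be set against each other.

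Mtor encodes the kinase itself. Its log2 values were 9.76, 9.67 and 9.80 in the input arrays and 10.71, 10.61 and 10.67 in the pulldown arrays. All pulldown arrays were above all input arrays, by 0.93 ± 0.043 on average (log2 difference ± SE), which is 1.90-fold (limma adjusted p = 1.5e-06). Mtor exceeded 97.7% of all genes in this difference.

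Rptor encodes the scaffold that brings substrates to mTORC1. It stood at 9.24, 9.16 and 9.37 in the input and at 10.55, 10.50 and 10.55 in the pulldown. The groups lay far apart, and the difference of 1.28 ± 0.054, or 2.43-fold, was the highest of the 9 members (adjusted p = 1.0e-06 in limma). Rptor was also the only one of the 9 that was at least 2-fold higher, as were 1.67% of all genes.

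Rictor encodes the defining subunit of mTORC2. Its values of 10.98, 11.01 and 11.03 in the input and 11.84, 11.82 and 11.81 in the pulldown were tightly grouped. The difference was 0.82 ± 0.028, or 1.76-fold (limma adjusted p = 4.7e-07). Set against Rptor within each array, Rptor minus Rictor was -1.75 ± 0.099 in input arrays and -1.29 ± 0.027 in pulldown arrays (mean ± SD, n = 3), a change of 0.46. The 2-sided exact permutation test of 3 against 3 arrays gave p = 0.10, the smallest it can give, and the same after adjustment over the 5 pairs compared.

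Mlst8, the small WD40-repeat subunit of both complexes, differed less. It stood at 9.40, 9.29 and 9.49 in the input and at 9.79, 9.66 and 9.82 in the pulldown. The lowest pulldown array was above the highest input array, and the difference was 0.36 ± 0.063, or 1.29-fold (limma adjusted p = 0.0019). Mtor minus Mlst8 changed by 0.56, from 0.34 ± 0.040 to 0.91 ± 0.055 (mean ± SD, n = 3, exact permutation p = 0.10), with no overlap between groups.

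Tsc1 encodes hamartin, which stabilises the TSC complex. Its values were 9.32, 9.29 and 9.39 in the input and 10.26, 10.25 and 10.21 in the pulldown. The groups were well separated, by 0.90 ± 0.036 or 1.87-fold (limma adjusted p = 8.0e-07). Tsc2 encodes tuberin, the part of TSC that switches Rheb off. It stood at 10.73, 10.82 and 10.90 in the input and at 11.57, 11.54 and 11.58 in the pulldown, higher by 0.74 ± 0.045 or 1.68-fold (adjusted p = 5.3e-06 in limma). Both TSC genes were thus higher in every pulldown array, and Tsc1 minus Tsc2 changed by 0.16 (exact permutation p = 0.10, the smallest possible, n = 3 per group). The genomic span of Tsc2 overlaps that of Pkd1, which was higher by 0.97 (limma adjusted p = 7.9e-07), and the part of shared signal in the Tsc2 value was not tested.

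Rheb, the GTPase that activates mTORC1 and the target of TSC, went the other way. It stood at 11.82, 11.86 and 11.72 in the input and at 11.20, 11.32 and 11.36 in the pulldown. Every pulldown array was below every input array, with a difference of -0.51 ± 0.054, or 1.42-fold lower (limma adjusted p = 0.00012). Only 7.20% of all genes had a more negative difference. Tsc2 minus Rheb moved from -0.98 ± 0.15 to 0.27 ± 0.082 (mean ± SD, n = 3), a change of 1.25 with exact permutation p = 0.10.

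Lamtor2, a small roadblock-fold subunit of the Ragulator scaffold, had the most negative difference of the members. Its values were 8.55, 8.45 and 8.44 in the input and 7.53, 7.32 and 7.49 in the pulldown. The groups did not overlap, and the difference of -1.03 ± 0.059 corresponds to 2.05-fold lower (limma adjusted p = 4.0e-06). Of all genes 2.01% were called and at least 2-fold lower, and 1.88% had a more negative difference than Lamtor2.

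Lamtor1 anchors Ragulator to the lysosomal membrane. It stood at 10.17, 10.29 and 10.15 in the input and at 10.42, 10.34 and 10.29 in the pulldown. The highest input array lay just above the lowest pulldown array, and the difference was 0.14 ± 0.049 (limma adjusted p = 0.047). That call ended under 7 of 12 alternatives, among them cyclic loess (0.03, adjusted p = 0.66) and leaving out any of input replicates 1 and 3 and pulldown replicates 1 and 2 (adjusted p from 0.10 to 0.15). A second probe set listed for Lamtor1 had a difference of 0.07 ± 0.046 and did not pass (limma adjusted p = 0.23 over 21789 probe sets). Within arrays, Lamtor1 minus Lamtor2 was 1.73 ± 0.11 in the input and 2.90 ± 0.11 in the pulldown (mean ± SD, n = 3, exact permutation p = 0.10), a change of 1.18 with no overlap between groups.

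**Figure D2:**
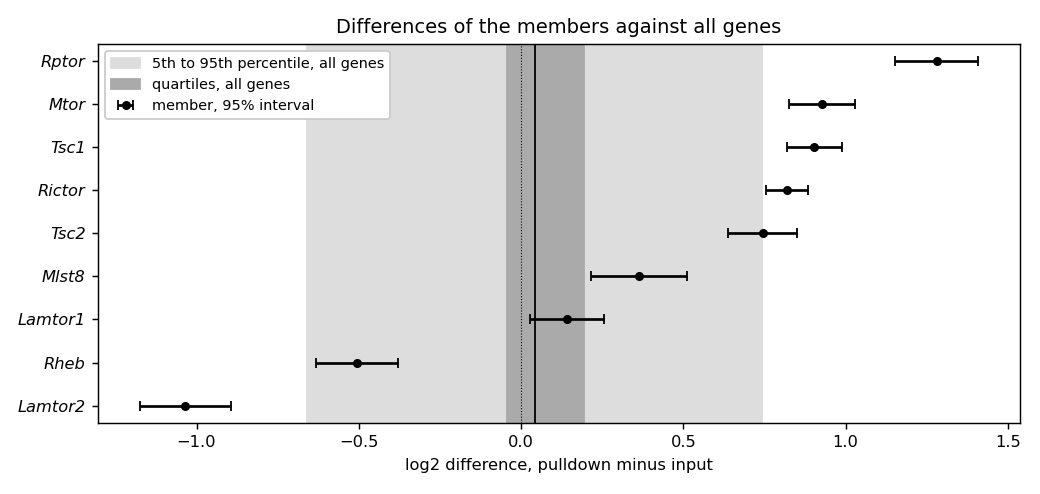
Log2 difference, pulldown minus input (horizontal axis), of each measured gene with its 95% interval from limma. The shaded bands give the 5th to 95th percentile and the quartiles of all 19938 genes and the solid line their median of 0.04; Rptor (1.28) and Lamtor2 (-1.03) lie at the ends.

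The other genes of the pathway were taken from 6 lists by role, of which 74 of 78 genes had a probe set. Of these 74, 40 were higher, 20 lower and 14 did not pass limma's test, with a median difference of 0.20. Among genes above the median level the shares were 46% higher and 26.8% lower, as given above. The Ragulator and Rag list had a negative median (-0.49), as did the list of 2 TSC and Rheb partners (-0.36). The lists of upstream kinases (0.42), amino acid sensing (0.38), complex partners (0.31) and downstream effectors (0.12) had positive ones.

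Among 8 partners of the mTOR complexes, 5 were higher, 2 lower and 1 did not pass. Over genes above the median level, 46% were higher and 26.8% lower. Deptor, an inhibitor that binds mTOR, was higher by 1.20 ± 0.054, with input arrays at 8.29, 8.09 and 8.27 and pulldown arrays at 9.41, 9.43 and 9.42 (limma adjusted p = 1.3e-06). Tti1, part of the chaperone assembly for mTOR-like kinases, was higher by 0.48 and its partner Telo2 by 0.30, while Tti2 stood at 0.03, with a 95% interval of -0.06 to 0.11. Mapkap1 (SIN1), a core subunit of mTORC2, was higher by 0.33. Akt1s1 (PRAS40), an mTORC1 inhibitor, was lower, at -0.46 ± 0.043 (limma adjusted p = 5.3e-05). The mTORC2 partners Prr5 (-0.41) and Prr5l (0.46), which are paralogs, were called in opposite directions, although the input mean of Prr5l, 6.67, was near the median level. Thus subunits of each complex were found in both directions.

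Both TSC and Rheb partners were lower, as were 17.3% of all genes and 26.8% of genes above the median level. Tbc1d7, the small subunit of TSC, stood at -0.25 ± 0.063 (limma adjusted p = 0.012), against positive differences of Tsc1 and Tsc2. This call ended without input replicate 2, input replicate 3 or pulldown replicate 3. Rhebl1, the paralog of Rheb, stood at -0.48, but its pulldown mean of 6.28 falls under the median level of 6.54, where background may make up the signal.

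The Ragulator and Rag list had 1 gene higher, 5 lower and 2 not past the test. Of genes above the median level, 46% were higher and 26.8% lower. Lamtor4 had the most negative difference, with input arrays at 10.96, 10.94 and 11.00 and pulldown arrays at 9.60, 9.46 and 9.54. The groups were far apart, at -1.43 ± 0.041 or 2.70-fold lower (limma adjusted p = 2.9e-07). Lamtor5 was lower as well, at -0.80 ± 0.046, while Lamtor3 stood at -0.06 (95% interval -0.13 to 0.02). Of the 5 Ragulator subunits, 3 were thus lower, 1 was higher by 0.14 and 1 did not pass. The higher one was Lamtor1, whose call ended under 7 of 12 alternatives. Lamtor2, Lamtor4 and Lamtor5 span 3 to 10 kb of the genome. Among coding genes of that span above the median level, 21.4% were higher and 46.3% lower. Among the Rag GTPases, which recruit mTORC1 to Ragulator, Rraga (-0.51) and Rragb (-0.47) were lower. Rragd was higher (0.42), from an input mean of 6.70 near the median level of 6.54. Rragc stood at -0.01 (95% interval -0.09 to 0.07). Slc38a9, the lysosomal arginine sensor, was lower by 1.48-fold, at -0.57 ± 0.028.

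**Figure D3:**
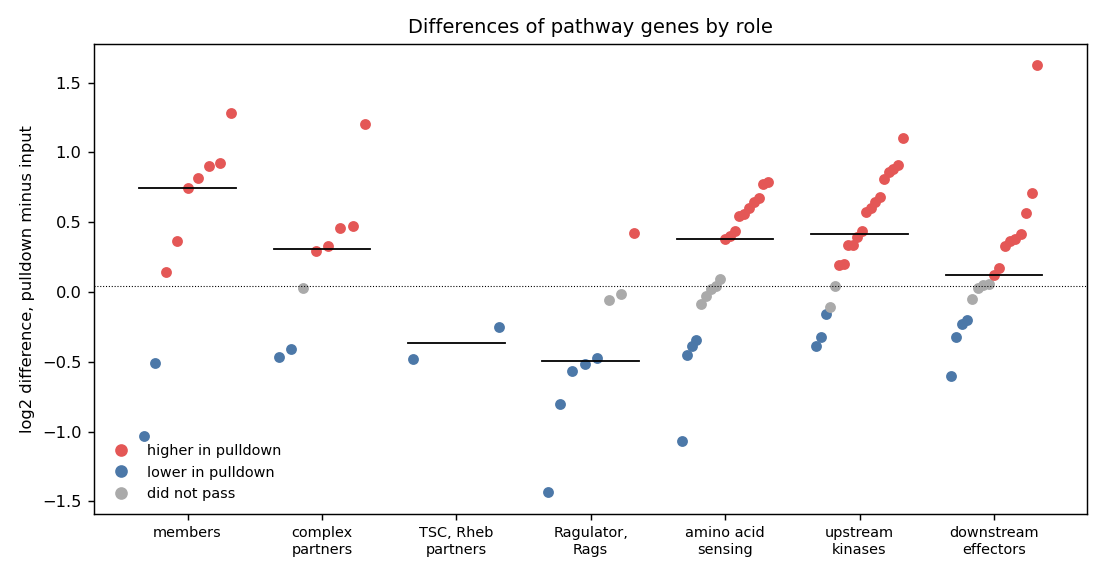
Log2 difference, pulldown minus input (vertical axis), of the 9 measured members and 74 other pathway genes by role, 1 point per gene, with black lines at the medians and a dotted line at the median of all genes. Red points were higher, blue points lower and grey points did not pass limma's test at an adjusted p under 0.05; the Ragulator and Rag genes lie mostly below the line and the upstream kinases mostly above it.

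Of 19 measured genes of amino acid sensing, 10 were higher, 4 lower and 5 did not pass. For comparison, 46% of genes above the median level were higher and 26.8% lower. Sesn3, a sestrin, was higher by 0.60 ± 0.028 (limma adjusted p = 1.6e-06), and the sestrins Sesn1 and Sesn2 by 0.56 and 0.40. Mios of the GATOR2 complex was higher by 0.78, and Fnip1, a folliculin partner, by 0.54. Depdc5, the large subunit of GATOR1, was higher by 0.64, whereas its partner Nprl2 stood at -0.34 and Nprl3 at -0.08, which did not pass. Kptn, a KICSTOR subunit, was lower by 2.10-fold, at -1.07 ± 0.060 (limma adjusted p = 3.6e-06). The arginine sensor Castor1 (-0.38) and its paralog Castor2 (0.67) were called in opposite directions.

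Of 20 measured upstream genes, 15 were higher, 3 lower and 2 did not pass. Shares among genes above the median level were 46% higher and 26.8% lower. Irs1, the adaptor of insulin and IGF receptors, was higher by 1.10 ± 0.037, with input arrays at 10.12, 10.17 and 10.16 and pulldown arrays at 11.32, 11.20 and 11.25 (limma adjusted p = 4.7e-07). Insr, the insulin receptor, was higher by 0.68. The phosphoinositide 3-kinase subunits Pik3r1 (0.88), Pik3ca (0.86) and Pik3cb (0.81) were all higher. Akt1 and Akt2 were higher by 0.20 and 0.33. Of AMPK, the energy-sensing kinase that opposes mTORC1, the catalytic subunits Prkaa1 (0.39) and Prkaa2 (0.57) and the scaffold Prkab2 (0.65) were higher, while Prkag1 (-0.32) and Prkab1 (-0.15) were lower. The Prkab1 call ended when any one of 4 arrays was left out, input replicates 2 and 3 and pulldown replicates 1 and 2.

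Of 17 downstream effectors, 9 were higher, 4 lower and 4 did not pass. Genes above the median level had shares of 46% higher and 26.8% lower. Larp1, the mTORC1-regulated repressor of mRNAs for the translation machinery, was higher by 1.62 ± 0.045. Ulk1, the autophagy-initiating kinase, was higher by 0.71 ± 0.036 (limma adjusted p = 2.4e-06), and Lpin1 and Grb10, both mTORC1 substrates, by 0.57 and 0.42. Rps6kb2, the paralog of the unmeasured S6 kinase gene, stood at -0.20 ± 0.042 (limma adjusted p = 0.0049), with input arrays at 9.56, 9.55 and 9.69 and pulldown arrays at 9.39, 9.43 and 9.38. Rps6, which encodes the ribosomal protein that S6 kinases phosphorylate, was lower, at -0.32. The translational repressors Eif4ebp1 (-0.23) and Eif4ebp2 (0.36) were called in opposite directions. Tfe3 was higher by 0.33, while its relative Tfeb stood at 0.03 (95% interval -0.03 to 0.10).

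Gene size moved with these differences. The members spanning over 30 kb of the genome, introns included, were Rptor (296.69 kb), Mtor (109.1 kb), Rictor (92.05 kb), Tsc1 (50.18 kb), Rheb (39.54 kb) and Tsc2 (36.86 kb). Of these 6, all but Rheb were higher by 0.74 or more. Lamtor1 (6.07 kb), Mlst8 (5.56 kb) and Lamtor2 (3.13 kb) span under 10 kb. Spearman's rank correlation of span and difference was 0.87 across the 9 members and 0.65 across the 83 measured members and other pathway genes. It was 0.36 across all 18556 coding genes and 0.48 across the 11630 of them brighter than the median. The points share the same 6 arrays and genes do not replicate each other, so the correlations are descriptions without a p.

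Members were then read beside coding genes above the median level of the same span. Among the 3340 such genes of 30 to 100 kb, whose median difference was 0.27, Tsc1 exceeded 94.0%, Rictor 91.1% and Tsc2 87.2%, but Rheb only 3.62%. Among the 1530 genes over 100 kb, with a median of 0.42, Rptor exceeded 97.8% and Mtor 86.0%. Among the 2222 genes of 3 to 10 kb, with a median of -0.09, Mlst8 exceeded 91.8%, Lamtor1 79.9% and Lamtor2 6.30%. The other pathway genes above the median level were 10 higher and 0 lower of 12 over 100 kb, where 75% of all such coding genes were higher and 7.84% lower. Between 30 and 100 kb 17 of 25 were higher and 3 lower, against 64.6% and 13.7%, and between 10 and 30 kb 12 of 22 were higher and 5 lower, against 40.5% and 30.2%. Between 3 and 10 kb 1 of 12 was higher and 9 lower, against 21.4% and 46.3%, and under 3 kb both of 2 were lower, against 14% higher and 51.3% lower.

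**Figure D4:**
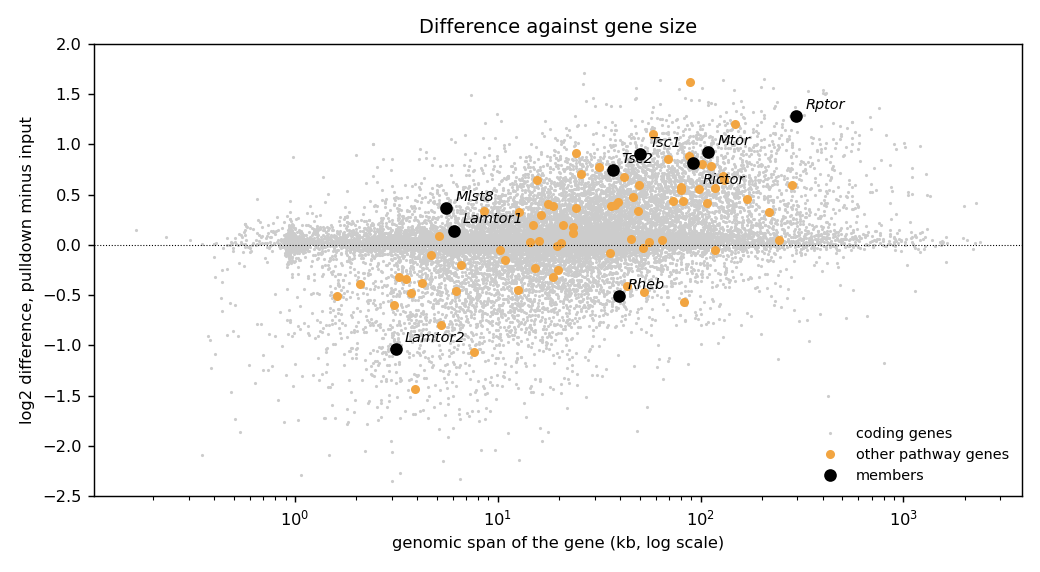
Log2 difference, pulldown minus input (vertical axis), against genomic span in kb (log axis) for coding genes (grey), other pathway genes (orange) and the 9 measured members (black, named); 6 grey genes lie below the axis limit of -2.5. Larger genes lie higher on the whole, and Rheb, at 39.54 kb and -0.51, lies below most genes of its span.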

How the data were processed

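RNA of 3 input and 3 pulldown samples was amplified from 100 ng with a whole-transcript kit, biotin-labelled and hybridised, per the labels' protocols. The deposited values are log2 expression values per probe set, and the submitters' processing notes name RMA and limma for what the authors did. For neither is a version, nor a genome build, given in the sources used here. RMA usually equalises array distributions, and a difference is then relative to the rest of the RNA.

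Of 35556 probe sets, 21789 had 1 gene symbol in the platform annotation, 1621 had several and 12146 had none listed. The brightest per gene was used, leaving 19938 genes. Differences were tested in limma 3.58.1 (R 4.3.3, moderated, 2-sided, no covariates), adjusted by Benjamini-Hochberg over all genes and called under 0.05. Within-array differences of gene pairs were compared by exact permutation, which cannot go below p = 0.10. All 10 members are named. For the pathway lists the members with the 4 smallest adjusted p are named (any member in lists of up to 8), in no set order. Further members were named after their values were seen. Members and lists were chosen with earlier results of these data known. Protein length had been planned and genomic span took its place, since no protein table was used here. Spans, overlaps and promoters come from RefSeq (GRCm38.p6) and were matched by Entrez identifier or symbol. Alternatives were a replicate block, a variance trend, cyclic loess, centring on the brightest probe sets, a filter on dim genes, the mean of probe sets and leaving out each array. In simulated data with 200 of the 19938 genes moved, 90.0% of those moved by 0.25 and 100% of those moved by 0.5 were called, with 10 false calls. The simulated noise was independent and normal. Far fewer genes moved there than the 48.7% called in the data, so these rates need not hold for the data. Figures were drawn with matplotlib 3.10.9.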

Additional observations from a re-analysis of the deposited data

How the results depend on the processing

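Under the 12 alternatives the direction of all 9 measured members was kept, and apart from Lamtor1 every member stayed past limma's threshold in each of them. The call of Lamtor1 ended under cyclic loess (0.03), centring on the brightest probe sets (0.10) and the mean of probe sets (0.11), and without input replicate 1 or 3 or pulldown replicate 1 or 2; leaving out arrays moved its difference between 0.11 and 0.18. Cyclic loess gave 5127 genes higher and 4565 lower, and 6 members higher and 2 lower. Counts of other pathway genes lay between 38 and 41 higher and between 18 and 26 lower. Cyclic loess turned the sign of 7 of these genes, none of which had passed the test. It ended the calls of Eif4b and Poldip3, and centring on the brightest probe sets that of Eif4b. With the replicate number as a block, 7 members were higher and 2 lower, as without it. Same-numbered arrays correlated in their deviations from the group means at 0.024, 0.11 and -0.060, and not every array correlated best with its own number, so the numbers were taken as names only. The changes within the 5 gene pairs kept their signs under the 8 alternatives run for them, and Rps6kb1 with Rps6kb2 gave no value. The exact permutation p of Tsc1 minus Tsc2 rose to 0.2 without pulldown replicate 1 or 2, while that of the other pairs stayed at 0.1. The sizes of differences at low signal, as for Rhebl1, Prr5l and Rragd, are uncertain.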
